A study of Mus musculus with 7 samples.

Results

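The genes examined here encode 10 Wnt ligands, namely Wnt2b, Wnt4, Wnt5a, Wnt5b, Wnt6, Wnt7a, Wnt7b, Wnt9a, Wnt10a and Wnt11. They were taken by symbol from the 32285 genes counted in mouse utricle explants, and all 10 were found there. The utricle, a balance organ of the inner ear, was taken from wild-type mice at postnatal day 2 (P2), cultured, and exposed to 2 mM gentamicin, an aminoglycoside that kills hair cells, for 24 h. Both groups carry that injury and were collected 5 days after it. In the Gent+Fos OE group (4 libraries) the explants also received AAV-Fos for 48 h, an adeno-associated virus of the PHP.eB type that drives mouse Fos from the CMV promoter, which is not restricted to one cell type. The Gent group (3 libraries) is labelled with gentamicin only, whereas the study's text speaks of a control AAV for the utricles compared with AAV-Fos, so whether these libraries carry a control virus was not settled. There was no library from undamaged utricle among those used, so each comparison is between damaged explants with and without added Fos. Each library pooled 12 utricles, and the replicates are therefore pools rather than single animals.

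Wnt proteins are secreted, lipid-modified glycoproteins. The acyltransferase Porcn attaches the lipid and the carrier Wls brings the protein to the cell surface, where it binds Frizzled receptors with co-receptors such as Lrp5, Lrp6, Ror2 or Ryk. In the β-catenin branch, receptor binding stops the Apc/Axin complex from destroying β-catenin, and target genes such as Axin2 are switched on. Wnt5a, Wnt5b and Wnt11 are known mainly for β-catenin-independent signalling, including the planar cell polarity that orients hair cells in the inner ear. In the neonatal inner ear, the β-catenin branch is known for promoting division of supporting cells, the cells that surround hair cells and can replace them.

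Total counts per library ran from 27879889 to 34335214 (median 31313523). Fos lay at 149 to 167 CPM in all 4 Gent+Fos OE libraries, against 34.6 to 40.6 CPM in the 3 of Gent. CPM is the count of a gene relative to the library total, after edgeR's TMM normalization. The log2 fold change was 2.01 with a standard error of 0.13. Its adjusted p was 0.000142 (edgeR, quasi-likelihood F-test, Benjamini-Hochberg). Reads of the viral and of the endogenous Fos cannot be told apart in these counts. Of 10 hair cell and 10 supporting cell marker genes, 10 and 9 had a mean of at least 1 CPM. Gent replicate 2 stood apart: across genes, its log2 CPM relative to the average library fell with gene length (Spearman's rho -0.496), whereas the other 6 libraries had values from -0.221 to 0.325. These were 0.124 to 0.325 in Gent+Fos OE, 0.153 in Gent replicate 1 and -0.221 in Gent replicate 3. All 4 Gent+Fos OE libraries were thus positive while Gent was mixed, so the trend with gene length is partly tied to the group. Values without Gent replicate 2 are therefore given where they move a ligand, and values with the length trend of each library removed are given for several genes.

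Of the 10 ligands, 9 had a mean of at least 1 CPM over the 7 libraries, and those 9 were above 1 CPM in each library. Wnt10a was the exception, with a mean of 0.866 CPM. To compare genes with each other, CPM was divided by gene length in kilobases (RPKM). Wnt5a was the most abundant ligand with a mean of 31.9 RPKM, followed by Wnt7b (17.9 RPKM), Wnt2b (17.0 RPKM), Wnt9a (10.4 RPKM) and Wnt7a (9.53 RPKM). Lower levels were measured for Wnt6 (5.69 RPKM), Wnt5b (3.34 RPKM), Wnt11 (2.14 RPKM), Wnt4 (1.48 RPKM) and Wnt10a (0.351 RPKM).

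Neighbours in this order were compared within libraries by a two-sided exact sign-flip permutation test on the log2 RPKM difference, adjusted over the 9 neighbour pairs. Since the order was taken from the mean RPKM of the same 7 libraries, these p-values describe how steady it was from library to library and are no independent test of it. Wnt5a exceeded Wnt7b in 7 of 7 libraries (adjusted p = 0.0352 by the exact test, from a raw p of 0.0156, the smallest that 7 libraries allow). The same held for Wnt5b over Wnt11, Wnt11 over Wnt4 and Wnt4 over Wnt10a. The order of the other 5 neighbour pairs was not separated beyond the spread between libraries. Wnt7b was above Wnt2b in only 3 of 7 libraries (exact adjusted p = 0.766) and Wnt9a above Wnt7a in 5 of 7 (exact adjusted p = 0.229). Wnt2b over Wnt9a and Wnt7a over Wnt6 were each seen in 6 of 7 libraries (exact adjusted p = 0.0703 and 0.0563), and Wnt6 over Wnt5b in 5 of 7 (exact adjusted p = 0.0804).

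**Figure D1:**
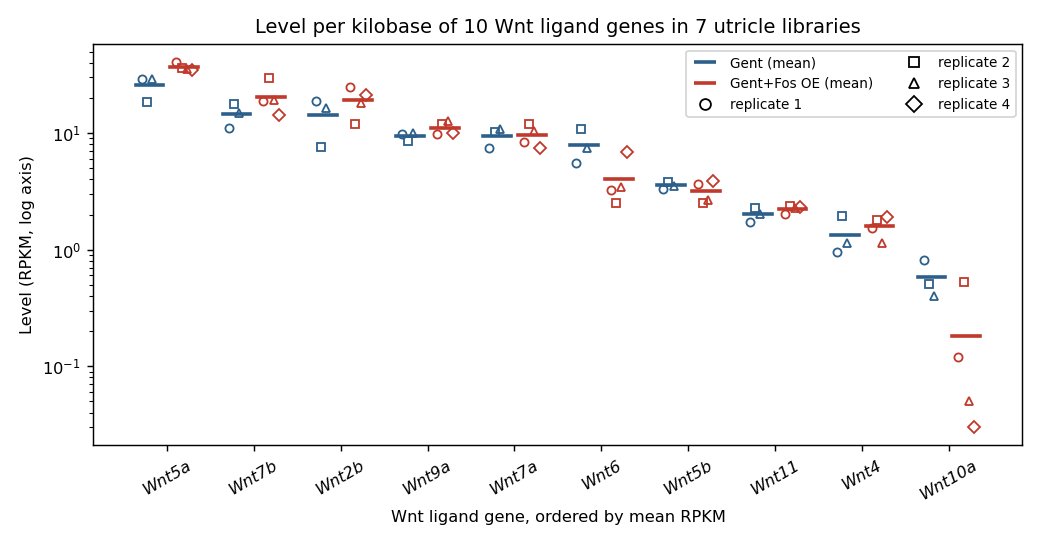
Level of each Wnt ligand gene in RPKM on a log axis, with 1 point per library (marker shape gives the replicate) and a bar at the mean of each group, 3 Gent libraries in blue and 4 Gent+Fos OE libraries in red. Wnt5a is the highest and the only ligand whose Gent+Fos OE points all lie above its Gent points.

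The 10 genes made 91.2% to 93.3% of the summed RPKM of all 19 mouse Wnt ligand genes in each library. Wnt5a, Wnt7b and Wnt2b together made 53.6% to 74.5% of the RPKM summed over the 10. Wnt5a alone took 33.9% ± 1.41 (SD, n = 4) in Gent+Fos OE and 28.7% ± 5.34 (SD, n = 3) in Gent. The share of Wnt7b ran from 12.4% to 26.4% over the libraries and that of Wnt2b from 9.33% to 21.9%, so the second place changed from library to library. The RPKM summed over the 10 genes was 113, 111, 105 and 103 in Gent+Fos OE replicates 1 to 4 and 88.3, 81.8 and 95.8 in Gent replicates 1 to 3. Within that sum, Wnt5a made up 36.7 ± 2.59 RPKM (SD, n = 4) in Gent+Fos OE and 25.6 ± 6.11 RPKM (SD, n = 3) in Gent. Of the 9 ligands outside the set, Wnt16 (17.2 ± 3.28 CPM in Gent+Fos OE, SD, n = 4, and 12.3 ± 3.76 CPM in Gent, SD, n = 3), Wnt2 (8.56 ± 2.94 and 6.12 ± 1.93 CPM), Wnt3 (3.19 ± 1.38 and 3.42 ± 0.859 CPM) and Wnt10b had a mean of at least 1 CPM. Wnt1 had no count in any library.

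**Figure D2:**
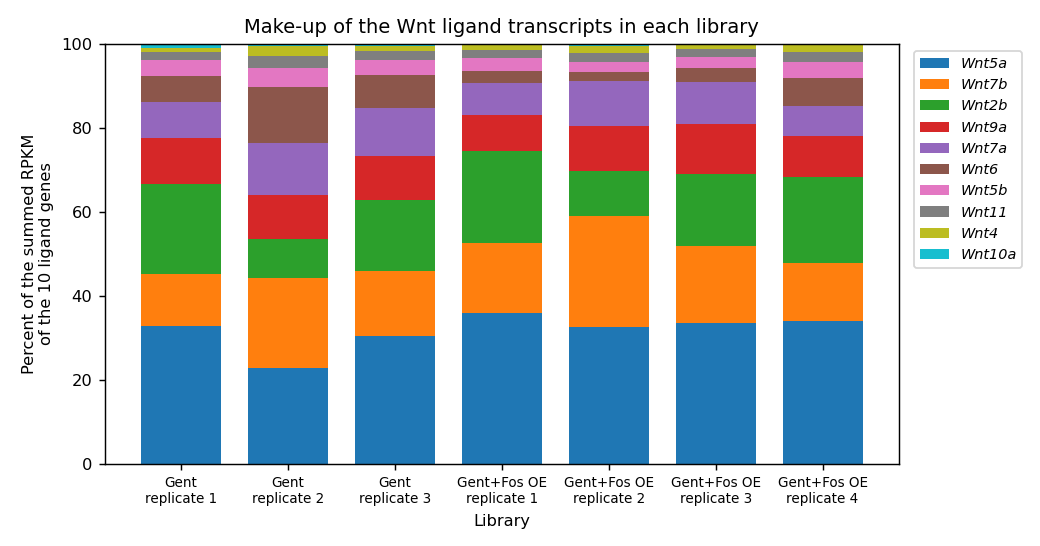
Stacked bars giving the percentage of the RPKM summed over the 10 Wnt ligand genes that each gene contributed, with 1 bar per library. Wnt5a is the lowest segment at 22.7% to 35.9%, and Gent replicate 2 has the lowest Wnt5a share and the highest Wnt6 share, 13.2%.

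Gent+Fos OE was then compared with Gent across all 17155 genes that passed edgeR's expression filter, all 10 ligands among them. A call needed an adjusted p below 0.01 together with a log2 fold change of more than 0.25 in either direction, which 71 genes (0.414%) reached. None of the 10 ligands was called by edgeR, DESeq2 (which called 3.17% of its genes) or limma-voom. At an adjusted p under 0.05, edgeR had none of the 10 (1.86% of all tested genes) and DESeq2 had 1, Wnt5a (7.55%). At an unadjusted p under 0.05 in edgeR there were 2 ligands, Wnt5a (higher) and Wnt6 (lower), and with DESeq2 there were 4. All tested genes gave 24.5% at this limit with edgeR and 23.1% with DESeq2, so 2 of 10 with edgeR is near the background. Wnt5a was also the only ligand whose groups did not overlap, against 23.4% of all tested genes in either direction and 11.3% with Gent+Fos OE higher. The log2 fold change was above 0 for 7 of the 10 ligands, against 49.9% of all tested genes, and its median over the 10 was 0.19. Without Gent replicate 1 these were 6 of 10 and 0.06. In these bulk libraries, fewer cells of a type and less RNA per cell cannot be told apart.

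**Figure D3:**
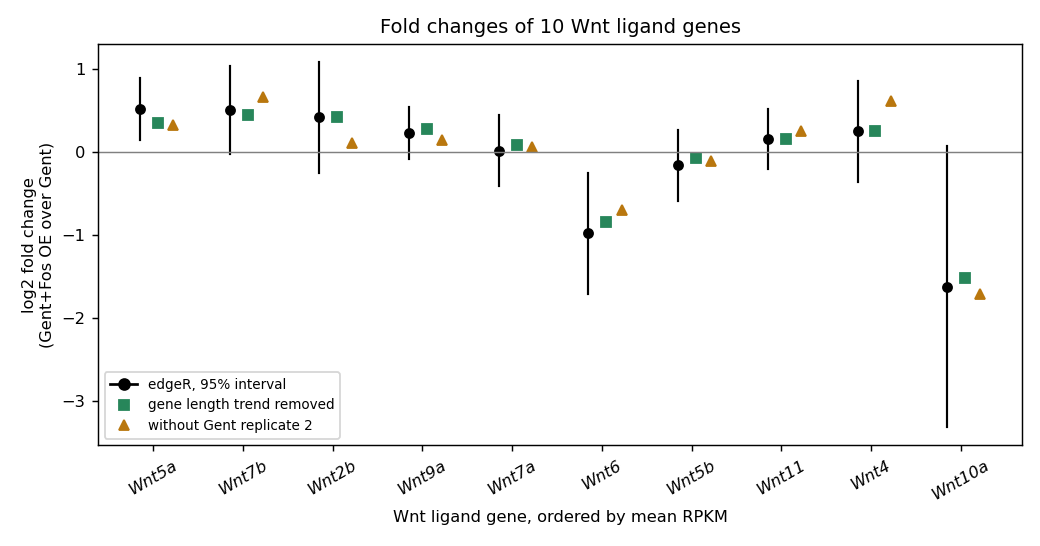
Log2 fold change of each Wnt ligand gene, Gent+Fos OE over Gent, in the order of mean RPKM, with the 95% interval from edgeR (black), the value after removal of the length trend of each library (green square) and the value without Gent replicate 2 (brown triangle). The interval lies above 0 for Wnt5a and below 0 for Wnt6 and includes 0 for the other 8 genes.

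Wnt5a (ENSMUSG00000021994; mm10 chromosome 14, 28504750 to 28527448, plus strand) is a ligand of Ror2 and Frizzled receptors. Its level was 317, 283, 275 and 274 CPM in Gent+Fos OE replicates 1 to 4 and 227, 145 and 229 CPM in Gent replicates 1 to 3. The groups did not overlap, and Gent replicate 2 was by far the lowest. The means were 287 ± 20.3 CPM (SD, n = 4) and 200.3 ± 47.8 CPM (SD, n = 3), and the log2 fold change of Wnt5a was 0.52 (95% interval 0.15 to 0.89). It did not pass the adjustment in edgeR (adjusted p = 0.121), DESeq2 gave an adjusted p of 0.0481, and a two-sided exact permutation test on the 7 libraries gave p = 0.0286, the smallest it allows. Wnt5a is long, with 7823 exonic bases, more than 83.3% of tested genes. Without Gent replicate 2 its log2 fold change was 0.33 (edgeR adjusted p = 0.0987), and with each library's length trend removed it was 0.35 (edgeR adjusted p = 0.107). Another gene overlaps 4.58% of its exonic length, and reads falling there were left out by the counting. The 3 genes whose pattern over the 7 libraries was closest to that of Wnt5a, by the root-mean-square difference of log2 CPM centred on each gene, were Grip1 (0.03), Dcaf6 (0.06) and Fign (0.06). The median over the 14829 genes compared was 0.40. As these 3 were picked for the smallest differences, their place below the median was fixed by the choice.

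Wnt5b (ENSMUSG00000030170; chromosome 6, 119432531 to 119544347, minus strand), the close paralog of Wnt5a with a role in cartilage, was far less abundant. It had 9.64, 6.71, 7.06 and 10.3 CPM in Gent+Fos OE and 8.83, 10.19 and 9.25 CPM in Gent, and the Gent range lay inside that of Gent+Fos OE. The log2 fold change of Wnt5b was -0.16 (95% interval -0.59 to 0.26, adjusted p = 0.618 from edgeR's test), with values from -0.28 (without Gent+Fos OE replicate 4) to -0.07 (without Gent+Fos OE replicate 2) when single libraries were left out. Wnt5a was 9.02 to 14.3 times as abundant as Wnt5b per length in Gent+Fos OE and 4.83 to 8.72 times in Gent. These ranges do not overlap. The lowest ratio, 4.83, was that of Gent replicate 2, and Gent replicates 1 and 3 had 8.72 and 8.39. The log2 fold change of Wnt5a minus that of Wnt5b was 0.68, and it was 0.42 with the length trends removed. The pair was set side by side after the values were seen and was not tested. It is 1 of 5 ligand ratios taken, of which 2 did not overlap, and the ratios of Wnt6 to Wnt10a, Wnt10b to Wnt10a and Wnt2b to Wnt2 overlapped between the groups.

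Wnt11 (ENSMUSG00000015957; chromosome 7, 98835112 to 98855195, plus strand), known for cell movements in the embryo and for branching of the kidney, varied little between libraries. Its levels were 8.3 to 9.77 CPM in Gent+Fos OE and 7.15 to 9.36 CPM in Gent. Its log2 fold change was 0.16 (95% interval -0.20 to 0.52, adjusted p = 0.554 from edgeR's test), with 0.07 when Gent replicate 1 was left out and 0.25 when Gent replicate 2 was. Wnt4 (ENSMUSG00000036856; chromosome 4, 137277489 to 137299726, plus strand), which acts in kidney and ovary development, had 4.75 to 8.02 CPM in Gent+Fos OE and 3.97 to 8.11 CPM in Gent. For Wnt4 the log2 fold change was 0.25 (95% interval -0.36 to 0.86, adjusted p = 0.583 from edgeR's test), and it was 0.06 without Gent replicate 1 and 0.61 without Gent replicate 2, its lowest and highest Gent libraries.

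AP-1, the dimer that Fos forms with Jun proteins, binds sequences covered by the pattern TGANTCA, in which N is any base. Promoters of the ligands were therefore read from the RefSeq table on GRCm38.p6, the mm10 assembly (250 bases before to 50 after a start site). The table held 10 promoters for 7 of the 10 ligands, namely Wnt2b, Wnt4, Wnt5b, Wnt6, Wnt7a, Wnt9a and Wnt11. TGANTCA, searched on both strands, was found in 1 of the 10, the upstream-most promoter of Wnt5b, against 7.81% of all 32851 promoters in the table. The related element TGACGTCA, which itself holds no match to TGANTCA, was found in none of the 10, against 1.79% of all. A match is a description of these letters and not a measurement of binding. The Wnt5b promoter lies at chr6:119544298-119544597 on the minus strand. It is shown because it alone held the match, which begins at position -191 from the start site and is in capitals. Its GC content is 78.0% with 47 CpG dinucleotides, against medians of 52.7% and 7 over all promoters.

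The promoter of Wnt6, at chr1:74771642-74771941 on the plus strand (GC content 76.7%, 31 CpG dinucleotides), is shown beside it as that of a ligand with an unadjusted p under 0.05 between the groups, given further on, and holds neither motif.
Wnt5b promoter: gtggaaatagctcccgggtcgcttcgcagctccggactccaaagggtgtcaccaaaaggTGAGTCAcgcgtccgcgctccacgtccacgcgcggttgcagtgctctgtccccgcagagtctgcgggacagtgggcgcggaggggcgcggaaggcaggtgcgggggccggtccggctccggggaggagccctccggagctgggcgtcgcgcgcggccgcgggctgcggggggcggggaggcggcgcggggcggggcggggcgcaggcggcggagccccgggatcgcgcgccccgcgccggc
Wnt6 promoter: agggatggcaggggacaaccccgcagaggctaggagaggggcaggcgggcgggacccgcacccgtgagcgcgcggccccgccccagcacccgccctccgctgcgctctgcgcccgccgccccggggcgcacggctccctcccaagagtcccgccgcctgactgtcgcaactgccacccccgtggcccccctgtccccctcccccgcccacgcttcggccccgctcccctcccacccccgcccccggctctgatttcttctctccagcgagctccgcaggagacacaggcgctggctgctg

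Wnt6 and Wnt10a lie next to each other on chromosome 1, on the same strand and 6.2 kb apart, and had the lowest log2 fold changes of the 10 ligands. Within the groups their levels did not run together. In Gent+Fos OE, replicate 4 was the highest library for Wnt6 and the lowest for Wnt10a, and replicate 2 was the reverse. In Gent, replicate 1 was the highest for Wnt10a and the lowest for Wnt6. Wnt6 (ENSMUSG00000033227; 74771892 to 74785322), a ligand of surface ectoderm and other epithelia, had 7.13, 5.45, 7.57 and 15.04 CPM in Gent+Fos OE replicates 1 to 4 and 12.12, 23.65 and 16.29 CPM in Gent replicates 1 to 3. The groups overlapped through Gent+Fos OE replicate 4, which lay above Gent replicate 1. Mean levels were 8.80 ± 4.26 CPM (SD, n = 4) against 17.4 ± 5.84 CPM (SD, n = 3), and the log2 fold change was -0.98 (95% interval -1.71 to -0.25). The adjusted p of Wnt6 was 0.128 in edgeR and 0.0507 in DESeq2, and the exact permutation test gave p = 0.0857. Its log2 fold change was -1.37 without Gent+Fos OE replicate 4 (adjusted p = 0.0437 from edgeR's test) and -0.70 without Gent replicate 2. Wnt6 is the shortest of the 10 genes, and with the length trends removed its log2 fold change was -0.84. The genes with the closest pattern to Wnt6, picked in the same way, were Rbp4 (0.18), Blvrb (0.18) and Acp5 (0.20), with a median of 0.70 over the 14829 genes compared.

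Wnt10a (ENSMUSG00000026167; 74791516 to 74804179), a ligand of tooth and hair development, was thinly counted. It had 9, 43, 4 and 2 counts in Gent+Fos OE replicates 1 to 4 and 59, 39 and 34 counts in Gent replicates 1 to 3. In CPM these were 0.29, 1.32, 0.13 and 0.07 against 2.02, 1.25 and 0.98, so it passed the expression filter mainly through the Gent group. Gent+Fos OE replicate 2 lay inside the Gent range, and the other 3 libraries of its group were below it. The log2 fold change of Wnt10a was -1.62 (95% interval -3.31 to 0.07, adjusted p = 0.219 from edgeR's test, exact permutation p = 0.114), and without Gent+Fos OE replicate 2 the value was -3.07 (edgeR adjusted p = 0.0554). Wnt10b, the paralog of Wnt10a on chromosome 15, had its highest Gent+Fos OE value in the same replicate, with 1.37, 2.88, 0.63 and 0.53 CPM in Gent+Fos OE and 1.75, 2.5 and 2.4 CPM in Gent (log2 fold change -0.70, adjusted p = 0.409 from edgeR's test, and -1.39 without Gent+Fos OE replicate 2 or -0.45 without Gent+Fos OE replicate 4).

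Markers of other cell types differed between the same groups. The summed level of 10 macrophage markers was 1405, 998, 1204 and 1662 CPM in Gent+Fos OE and 2206, 2355 and 1835 CPM in Gent, and 8 of the 10 were lower at an unadjusted p under 0.05, against 13.4% of all tested genes (11.1% were higher). Melanocyte markers summed to 49.2 to 53.6 CPM in Gent+Fos OE and 100.5 to 136 CPM in Gent, with 7 of 8 tested genes lower at the same limit. In contrast, 10 supporting cell markers summed to 1853 to 2268 CPM against 1199 to 1581 CPM, with 3 of 9 tested genes higher and 1, Tectb, lower at an unadjusted p under 0.05. That gap rests on Otog, since the other 9 markers summed to 914 to 1089 CPM against 768 to 1114 CPM, which overlap. Another 10 markers, of stratified epithelium, summed to 68.6 to 87.8 CPM against 13.3 to 38.9 CPM, with 2 of 5 tested genes higher. These were Crct1 and Sprr1a, and without them the other 8 summed to 3.55 to 9.68 CPM against 6.37 to 13.4 CPM. Both sums without these genes were taken after the values were seen. Krt6a and Sprr1b of the last list had no count in any library, while no marker of the other 3 lists was at 0. Mesenchymal, endothelial, glial, neuronal, hair cell and erythroid sums overlapped between the groups. At the unadjusted limit, 3 of 10 hair cell, 1 of 9 endothelial and 2 of 8 neuronal markers were higher and none lower, while 3 of 10 glial and 2 of 10 mesenchymal markers were lower and none higher. The part of these markers in the values of Wnt5a, Wnt6 and Wnt10a was not tested.

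Among the ligands known for the β-catenin branch, Wnt7b and Wnt7a are paralogs that act on brain blood vessels, and Wnt7b also on the growing lung and kidney. Wnt7b (ENSMUSG00000022382; chromosome 15, 85535437 to 85582473, minus strand) had 92.45, 143.94, 94.86 and 69.76 CPM in Gent+Fos OE and 53.63, 86.41 and 72.4 CPM in Gent. Replicate 4 of Gent+Fos OE lay inside the Gent range and replicate 2 well above all others. The means were 100.3 ± 31.2 CPM (SD, n = 4) and 70.8 ± 16.4 CPM (SD, n = 3), and the log2 fold change of Wnt7b was 0.50 (95% interval -0.02 to 1.03, adjusted p = 0.219 from edgeR's test, exact permutation p = 0.171). Leaving out single libraries gave 0.27, without Gent+Fos OE replicate 2, to 0.66, without Gent replicate 2. The gene AU022754 overlaps 6.61% of the exonic length of Wnt7b.

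Wnt7a (ENSMUSG00000030093; chromosome 6, 91363981 to 91411363, minus strand) had nearly the same mean in both groups, 30.3 ± 6.34 CPM (SD, n = 4) and 30.1 ± 5.89 CPM (SD, n = 3). It ran from 23.56 to 37.66 CPM in Gent+Fos OE and from 23.44 to 34.61 CPM in Gent. The log2 fold change of Wnt7a was 0.01, and its 95% interval of -0.41 to 0.44 leaves room for a change of either sign. Wnt7b was 1.85 to 2.48 times as abundant as Wnt7a per length in Gent+Fos OE and 1.35 to 1.73 times in Gent, ranges that do not overlap. The log2 fold change of Wnt7b minus that of Wnt7a was 0.49, and 0.36 with the length trends removed. The ratio of Wnt7b to Wnt7a is the other non-overlapping ratio of the 5, and was likewise not tested.

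Wnt2b (ENSMUSG00000027840; chromosome 3, 104945272 to 104961921, minus strand), which acts in lung specification and at the edge of the retina, varied widely within both groups. It had 104.08, 50.67, 76.3 and 88.83 CPM in Gent+Fos OE and 78.86, 32.08 and 68.5 CPM in Gent, and replicate 2 was the lowest library of each group. The log2 fold change of Wnt2b was 0.42 (95% interval -0.25 to 1.08, adjusted p = 0.396 from edgeR's test), which became 0.11 when Gent replicate 2 was left out and 0.67 when Gent replicate 1 was. Wnt9a (ENSMUSG00000000126; chromosome 11, 59306928 to 59333552, plus strand), a ligand of joint formation, had 32.7 to 41.86 CPM in Gent+Fos OE and 28.3 to 33.63 CPM in Gent. For Wnt9a the log2 fold change was 0.23 (95% interval -0.08 to 0.54, adjusted p = 0.324 from edgeR's test), or 0.15 without Gent replicate 2.

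The libraries with the highest and lowest levels changed from ligand to ligand. Within Gent+Fos OE, replicate 2 was the highest library for 4 ligands (Wnt7a, Wnt7b, Wnt10a and Wnt11) and the lowest for 3 (Wnt2b, Wnt5b and Wnt6). Replicate 4 of that group was the highest for 3 and the lowest for 4. Within Gent, replicate 2 was the highest for 5 ligands and the lowest for 3, and replicate 1 the lowest for 6.

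The other genes of the pathway were examined in 7 lists holding 105 genes, of which 94 were tested. None was called by edgeR, 16 were higher and 3 lower at an unadjusted p under 0.05, and DESeq2 called 1, Apc. Over all tested genes, 11.1% were higher and 13.4% lower at that unadjusted limit. The 9 ligands outside the set had 4 tested genes and none past it. The 8 genes of Wnt secretion and lipid removal also had none, with a median log2 fold change of 0.05, or -0.02 without Gent replicate 2.

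Among 19 receptors and co-receptors, 6 were higher and none was lower at an unadjusted p under 0.05. The median log2 fold change of this list was 0.19, which became 0.05 without Gent replicate 2 and stayed at 0.19 with the length trends removed. Musk, a kinase with a Wnt-binding domain, had 8.59 ± 1.41 CPM across Gent+Fos OE libraries (SD, n = 4) and 4.72 ± 1.64 CPM across Gent libraries (SD, n = 3) (log2 fold change 0.86, adjusted p = 0.105 from edgeR's test). Fzd3, a planar polarity receptor, had 109 ± 13.5 and 68.6 ± 22 CPM (log2 fold change 0.67, which was 0.43 without Gent replicate 2 and 0.35 with the length trends removed). Fzd6, which acts with Fzd3 in planar polarity, had a log2 fold change of 0.60 (adjusted p = 0.126 from edgeR's test). For Fzd6 it was 0.38 without Gent replicate 2 and 0.56 with the length trends removed. The 10 tested secreted Wnt inhibitors had none past the unadjusted limit and a median of -0.12.

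Of 9 tested genes in a list of R-spondins, their LGR receptors and the ligases that remove Wnt receptors, which also held the Frizzled ligand Ndp and its co-receptor Tspan12, 2 were higher and 1 lower at an unadjusted p under 0.05. Rspo3, a secreted protein that strengthens Wnt signals, was the lower one, with 27.8 ± 5.93 CPM across Gent+Fos OE libraries (SD, n = 4) and 44.0 ± 6.72 CPM across Gent libraries (SD, n = 3) (log2 fold change -0.66, adjusted p = 0.0857 from edgeR's test). Lgr6, an R-spondin receptor, had a log2 fold change of 0.69 (edgeR adjusted p = 0.139), which was 0.40 without Gent+Fos OE replicate 2. Znrf3, a ligase that removes Frizzled from the surface, had one of 0.65 (edgeR adjusted p = 0.117). For Znrf3 it was 0.41 without Gent replicate 2 and 0.49 with the length trends removed. Of the 31 genes inside the cell, 6 were higher and none lower at the unadjusted limit, with a median of 0.17. That median was 0.04 after the length trends were removed and 0.13 without Gent replicate 2. Apc, a scaffold of the complex that destroys β-catenin, had 291 ± 36.3 CPM (SD, n = 4) against 162 ± 54.7 CPM (SD, n = 3), for a log2 fold change of 0.85 (adjusted p = 0.0822 from edgeR's test and 0.00744 from DESeq2), or 0.46 with the length trends removed. Amer1, a partner of Apc, had a log2 fold change of 0.68 (edgeR adjusted p = 0.157), with 0.39 when Gent replicate 2 was left out and 1.04 when Gent replicate 1 was. Bcl9, a co-activator of β-catenin, had one of 0.59 (edgeR adjusted p = 0.0995), or 0.39 with the length trends removed.

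The 13 tested feedback and target genes had 2 higher and 2 lower at the unadjusted limit and a median of -0.03. Ccnd1, the gene of cyclin D1, had a log2 fold change of 0.90 (adjusted p = 0.124 from edgeR's test). The other higher gene was Axin2, at 49.34 to 57.58 CPM in Gent+Fos OE against 40.86 to 46.31 CPM in Gent, groups that did not overlap (log2 fold change 0.27, edgeR adjusted p = 0.201). Ascl2, a target in intestinal stem cells, had 1.31 ± 0.382 CPM across Gent+Fos OE libraries (SD, n = 4) and 2.87 ± 0.478 CPM across Gent libraries (SD, n = 3) (log2 fold change -1.14, adjusted p = 0.0904 from edgeR's test). Nkd2, a feedback inhibitor, had a log2 fold change of -0.41 (adjusted p = 0.181 from edgeR's test).

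**Figure D4:**
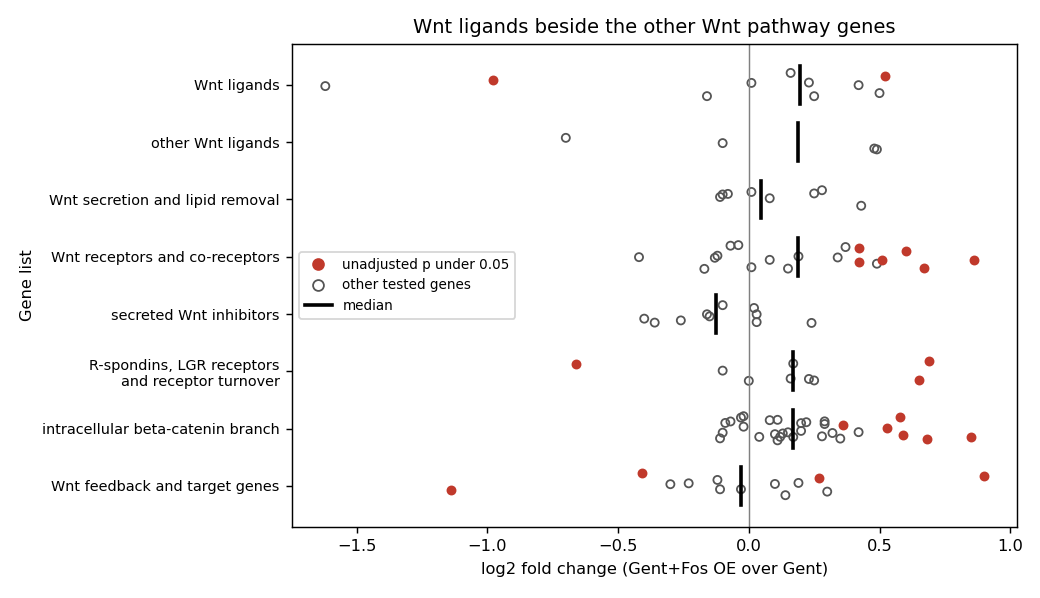
Log2 fold change, Gent+Fos OE over Gent, of each tested gene in the Wnt ligand set and in 7 further lists of Wnt pathway genes, with red points for an unadjusted edgeR p under 0.05 and a black bar at the median of each list. The list medians lie between -0.12 and 0.19, and no gene in the plot was called by edgeR at the adjusted limits.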

How the data were processed

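RNA sequencing counts of 7 libraries were used, 4 Gent+Fos OE and 3 Gent, each from 12 pooled utricles, grouped by their labels. The study's methods state 3 replicates per condition, and all 7 labelled libraries were kept. The authors deposited raw read counts per gene, not normalized, made per the file headers with featureCounts 2.0.6 on an mm10 annotation. The headers show that both reads of a pair were counted separately, that strand was not used, and that reads with more than 1 place or gene were discarded. The submitters' processing notes also name Trim Galore 0.6.10, HISAT2 2.2.1 and DESeq2 1.34.0, while the study's methods name mm39 and other versions of these tools except HISAT2. Coordinates are those of the files, on mm10.

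A symbol was assigned to 24510 genes, those for which the GENCODE name of the Ensembl ID is listed by RefSeq at the same place. In R 4.3.3, genes were filtered with edgeR 4.0.16 (filterByExpr, 17155 genes kept), normalized by TMM and compared by the quasi-likelihood F-test without covariates. RPKM was computed from the TMM-scaled CPM and the exonic length in the files. Standard errors and 95% intervals of fold changes come from that fit, and ± gives the SD. For single genes, the mean log2 CPM (0.5 CPM added) was also compared by exact permutation, two-sided, over the 35 ways to divide 7 libraries into 4 and 3. The script was tested on simulated data. Pairs of libraries within a group differed by a chi-square per degree of freedom of 18 to 149.9, more than counting error gives, and none was a repeat of another.

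Alternatives were DESeq2 1.42.0 (genes with at least 10 counts in total), limma-voom (limma 3.58.1), RLE normalization, no expression filter or one of 10 counts in every library, removal of the gene length trend of each library (loess span 0.3), a replicate block on its own or together with that removal, and leaving out single libraries. The members, gene lists, tests and alternatives were chosen with earlier results of these data known. Genes named are the ligands, Fos, other Wnt ligands with a mean of at least 1 CPM, in each pathway list the 3 largest absolute log2 fold changes among genes with an unadjusted p under 0.05 and at least 1 CPM, the 3 closest patterns for the 2 ligands with the lowest p, and marker genes. Wnt1, AU022754 and Axin2 were named beside them after their values were seen. CUT&Tag, reporter, drug and imaging experiments were not analysed here.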

Additional observations from a re-analysis of the deposited data

Results flagged for a closer look

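For 38 genes given with values (the 10 ligands, Fos, the other ligands and pathway genes named, the genes with the closest patterns and 4 marker genes), it was asked whether the highest or lowest of the 4 Gent+Fos OE libraries lay far from the rest of its group by Dixon's 95% limit. This was met by 2 of the 38 genes, where chance gives about 1 in 20 groups. Fos was at 166.98 CPM in Gent+Fos OE replicate 3 against 148.83 to 151.14 CPM in the other 3 libraries. Axin2 was at 57.58 CPM in Gent+Fos OE replicate 1 against 49.34 to 50.44 CPM in the other 3. None of the 10 ligands met it. The Gent group of 3 libraries is too small for this comparison.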

How the results depend on the processing

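None of the 10 ligands was called in any of the 15 alternative fits, and 9 of the 10 were expressed under each of 12 other settings (other scalings, 1 RPKM in place of 1 CPM, 1 CPM in every library, and single libraries left out). Of all genes, 23 were called higher and 48 lower by edgeR. These counts were 273 and 327 with DESeq2, 63 and 141 without a filter, and 35 and 95 with the length trend removed. Leaving out single libraries gave 2 higher (without Gent+Fos OE replicate 3) to 45 higher (without Gent replicate 2), and 3 to 93 lower. At an unadjusted p under 0.05, the 2 ligands became 4 with DESeq2 and 4 without a filter, settings that put 23.1% and 19.7% of all genes under it (24.5% with edgeR as reported). DESeq2 called 1 other pathway gene, Apc, where edgeR called 0. The median log2 fold change of the ligands, 0.19, ran from 0.06 (without Gent replicate 1) to 0.23 when single libraries were left out. Wnt7a ran from -0.14 to 0.12 in those fits and changed sign, to -0.11 without Gent+Fos OE replicate 2, -0.04 without Gent+Fos OE replicate 3 and -0.14 without Gent replicate 1. The other 9 ligands kept their direction. Wnt10a had too few counts for the filter of 10 counts in every library. The adjusted p ran from 0.0481 to 0.267 for Wnt5a and from 0.0363 to 0.274 for Wnt6 over the alternatives. The cause of these differences was not tested.

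Replicate numbers are shared between the groups, but the libraries share only a number: correlations of same-numbered libraries were 0.064, -0.038 and 0.032, and not every library correlated best with its own number. With the replicate block, edgeR called 0 genes higher and 0 lower, with 3400 genes (19.8%) at an unadjusted p under 0.05, 5 ligands among them. With the block and the length trend removed, 17 genes were called higher and 31 lower, and 4 ligands were under the unadjusted limit, as were 20.6% of all genes. For Fos the log2 fold change was 2.03 under the block (adjusted p = 0.0296) and 2.16 under the block with the length trend removed (adjusted p = 0.0018, called).

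With 4 and 3 pools, changes smaller than the 95% interval printed for each ligand could not be resolved. Wnt10a, at 2 to 59 counts, is limited by depth as well.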
